A study of Homo sapiens with 11 samples.

Results

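The comparison described here sets shMETTL3 number 1 against shMETTL3 number 2, the pair of METTL3 knockdown libraries made in each of 2 human lung cancer cell lines. Its members are 4 of the 11 samples of the series: A549 shMETTL3 numbers 1 and 2, and H1299 shMETTL3 numbers 1 and 2. The genes compared were those in both deposited tables with a mean of at least 20 scaled reads over the pair in each line, which left 10124 of the 19806 genes named once in both. Just inside this limit was ADPRM, with a lower mean of 20, and just outside was DTWD1, with 19.95. This limit on the mean did not use the difference between the numbers, though it was set with earlier results of these data known.

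A549 and H1299 are established lines of non-small cell lung cancer, and the labels describe both only as lung cancer cells, grown in DMEM with serum and antibiotics. A short hairpin RNA (shRNA) is processed by the cell into a small RNA that guides cleavage of a matching transcript. All 4 libraries come from cells with an shRNA against METTL3, and 1 library per line from cells with an shRNA against GFP (shGFP) is given beside them as the control. Whether a number marks a hairpin, a culture or a repeat library is not given in the labels, nor is how the shRNA was delivered or how long the cells carried it. The p-values below therefore measure only the spread between these libraries, which may be technical. That spread is how far the lines disagree in the difference between the numbers, not a spread between replicates. In limma, it is taken mostly from other genes rather than from the gene tested. The limma fit borrows 13.8 degrees of freedom and has 1 from the gene itself.

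METTL3 is the catalytic subunit of the complex that places N6-methyladenosine (m6A) on mRNA, a mark read by proteins that act on the splicing, decay and translation of transcripts. A small RNA can also lower transcripts that match only its seed, the short stretch near its 5′ end, so knockdown studies commonly set more than one hairpin against the same gene.

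Values are the deposited scaled reads, which are whole reads divided by 1 factor per library. The knockdown libraries held between 14447379 and 25443078 reads in genes, and the shGFP libraries 19966206 in A549 and 26351309 in H1299. The ribosomal RNA precursor RNA45S5 took 20.5% of the reads in H1299 number 1 and 25.4% in number 2, and under 1% in A549 (0.208 and 0.284%). Over all 10124 genes the median difference, log2(value + 1) of number 1 minus number 2, was 0.00 in A549 and 0.13 in H1299. Centring the libraries or scaling them by TMM removes that shift. The part of RNA45S5 in it was not tested.

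METTL3 itself was equally low in both numbers in A549 and close in H1299. A549 shGFP cells had 557 scaled reads, number 1 had 231 (41.6% of shGFP) and number 2 had 232 (41.7%). The H1299 libraries had 271 in shGFP cells, 123 in number 1 (45.4%) and 100.2 in number 2 (36.9%). All 4 knockdown libraries were below the control of their line, as the labels have it. Number 1 minus number 2 was 0.00 in A549 and 0.29 in H1299 on the log2 scale. Over both lines the difference was 0.14 (SE 0.17, 95% interval -0.23 to 0.52), with a limma adjusted p of 0.753. A difference in METTL3 of up to 0.52 is thus within what these libraries allow.

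At these METTL3 levels, 21 genes differed between the numbers over both lines under each of 4 analyses. The analyses were limma on the deposited scale, limma after median centring, limma after TMM scaling, and edgeR on the recovered reads. Each tests the mean difference over the lines, and no test was run within a line. Of the 21 genes, 12 were higher in number 1 (0.119% of genes tested) and 9 were lower (0.0889%). The set was drawn after the 4 analyses had been seen, and it is the same as the 21 edgeR calls. On the deposited scale alone limma called 281 genes, 208 higher in number 1 (2.05%) and 73 lower (0.721%), and 74.0% of its calls were thus higher. That count moved with the analysis: centring left 33 calls (60.6% higher), TMM 26 (57.7%) and edgeR 21 (57.1%), all of them among the 281. The genes described first are those called in all 4. Adjusted p below are those of limma on the deposited scale unless another analysis is named. For the 21 genes they were larger in the other analyses. RRBP1 had 7.65e-05 on the deposited scale, 0.0149 after centring and 0.0225 after TMM scaling. In edgeR the 21 ran from 0.0259 (RRBP1 among others) to 0.0480 (SNF8 among others).

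**Figure D1:**
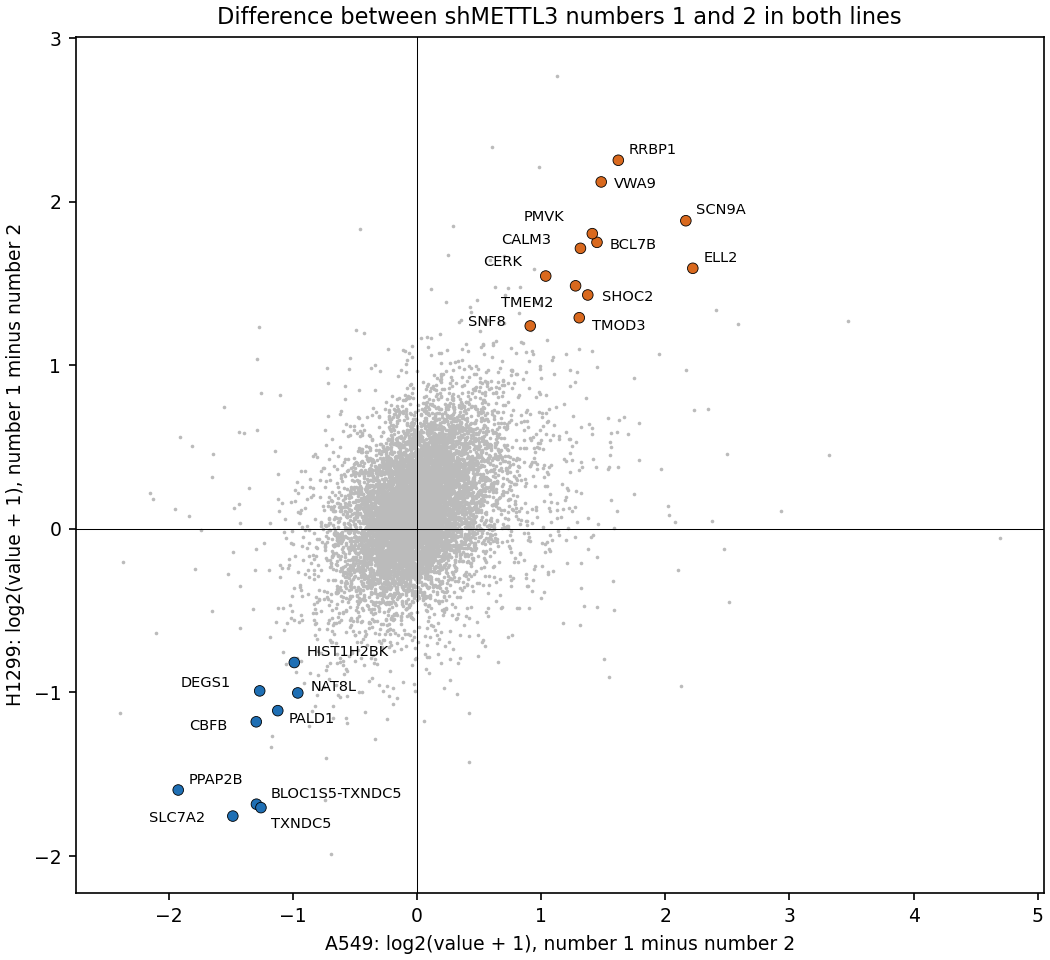
Difference of log2(value + 1), number 1 minus number 2, in A549 (x axis) and H1299 (y axis) for 10124 genes (grey points), with the 21 genes called in all 4 analyses in orange (12 higher in number 1) and blue (9 lower). The named genes sit in the upper right and lower left corners, from SCN9A at 2.17 and 1.88 to PPAP2B at -1.92 and -1.60.

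The genes higher in number 1 included RRBP1, a ribosome-binding protein of the endoplasmic reticulum (ER) membrane. It stood at 680 scaled reads in A549 shGFP cells, 800.4 in number 1 and 259 in number 2, and at 544, 548 and 114 in H1299. Number 1 was near the control in both lines and number 2 was far below it. The 1 to 2 ratio was 3.09 in A549 and 4.80 in H1299, and the log2 difference over both lines was 1.94 (SE 0.17, limma adjusted p = 7.65e-05). PMVK, the phosphomevalonate kinase of the mevalonate pathway, had the same form: 268, 260.4 and 97.2 in A549, and 278, 302 and 85.8 in H1299. Its log2 difference was 1.61 (SE 0.18, adjusted p = 0.000259).

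SCN9A, the pore-forming subunit of a voltage-gated sodium channel, moved to both sides of the control. In A549 it stood at 133 in shGFP cells, 282.5 in number 1 and 62.2 in number 2, and in H1299 at 31.6, 57.3 and 14.8. Number 1 was above shGFP and number 2 below it in both lines (log2 difference 2.02, SE 0.21, adjusted p = 0.000165). ELL2, an elongation factor of RNA polymerase II, was likewise above in number 1 and below in number 2, at 256, 609 and 129.7 in A549 and 169, 218 and 71.6 in H1299. Its difference was larger in A549 (2.22) than in H1299 (1.59), and this contrast between lines was not tested.

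Genes of transcription and chromatin were also among the 12. VWA9 (now INTS14), a subunit of the Integrator complex that processes small nuclear RNAs, stood at 61.8, 77.9 and 27.2 in A549 and at 35.9, 45.1 and 9.6 in H1299. BCL7B, a subunit of SWI/SNF chromatin remodelling complexes, stood at 126, 137.5 and 49.7, and at 195.5, 207 and 60.8. In both genes number 1 was within 0.5 log2 units of shGFP and number 2 more than 1 unit below it.

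Signalling and cytoskeletal genes followed the same order. SHOC2, a scaffold that helps activate RAF kinases, stood at 204, 272.5 and 104 in A549 and at 68.8, 78.2 and 28.4 in H1299. CALM3, which encodes calmodulin, stood at 2881, 3762.5 and 1510 in A549 and at 2074.5, 2912 and 886 in H1299. CALM2, which encodes the same protein, had differences of -0.03 and 0.22 and did not pass the test (adjusted p = 0.809). TMOD3, which caps the slow-growing ends of actin filaments, had differences of 1.31 and 1.29. Its levels were 1973, 2496 and 1008 in A549 and 377, 519 and 212 in H1299.

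The remaining 3 are TMEM2, CERK and SNF8. TMEM2 (now CEMIP2), a cell surface protein that degrades hyaluronan, stood at 1351, 1368 and 564 in A549 and at 55.7, 84.7 and 29.6 in H1299. CERK, which phosphorylates ceramide, had differences of 1.04 and 1.55. SNF8, a subunit of the ESCRT-II complex of endosomal sorting, had the smallest difference of the 12 in A549 (0.91) and 1.24 in H1299. Every one of the 12 was below shGFP in number 2 in both lines.

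The largest difference among the 9 genes lower in number 1 was that of PPAP2B (now PLPP3), a phosphatase of lipid phosphates. It stood at 196 scaled reads in A549 shGFP cells, 66.8 in number 1 and 256 in number 2, and at 52.0, 16.0 and 50.4 in H1299. Here number 1 was far below the control and number 2 was near it (log2 difference -1.76, SE 0.21, adjusted p = 0.000601). SLC7A2, a transporter of cationic amino acids, had low levels, at 47.9, 18.9 and 54.7 in A549 and 35.1, 14.4 and 51.0 in H1299. Its differences were -1.48 and -1.76.

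TXNDC5, a protein disulfide isomerase of the ER, stood at 664, 292.5 and 700.0 in A549 and at 947, 267 and 872 in H1299. Number 1 alone was low in both lines (log2 difference -1.48, SE 0.15, adjusted p = 0.000165). The read-through transcript BLOC1S5-TXNDC5 is listed beside it with differences of -1.29 and -1.68. The counts of these 2 entries can share reads, so they are not separate observations. BLOC1S5 on its own, which is part of a complex for lysosome-related organelles, had -0.47 and 0.13 (adjusted p = 0.806). In the reference annotation the 21 genes lie on 15 chromosomes, and this pair is the 1 that overlaps or adjoins.

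CBFB, the partner subunit of RUNX transcription factors, stood at 184, 95 and 234 in A549 and at 143, 75.3 and 172 in H1299. DEGS1, the desaturase that makes ceramide from dihydroceramide, stood at 930, 403 and 970 in A549 and at 153, 74.0 and 148 in H1299. PALD1 (paladin) stood at 183, 89.3 and 195 and at 292, 121 and 263. In these 3 genes number 1 was below both other libraries of its line. NAT8L, which makes N-acetylaspartate, stood at 254, 141 and 276 and at 345, 204 and 409.8 (log2 difference -0.98, SE 0.15).

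HIST1H2BK (now H2BC12), a histone H2B gene, was the exception among the 9. It stood at 420.0, 387 and 768 in A549 and at 824, 762 and 1342 in H1299. Number 1 lay near the control and number 2 above it in both lines (log2 difference -0.90, SE 0.14, adjusted p = 0.00320).

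**Figure D2:**
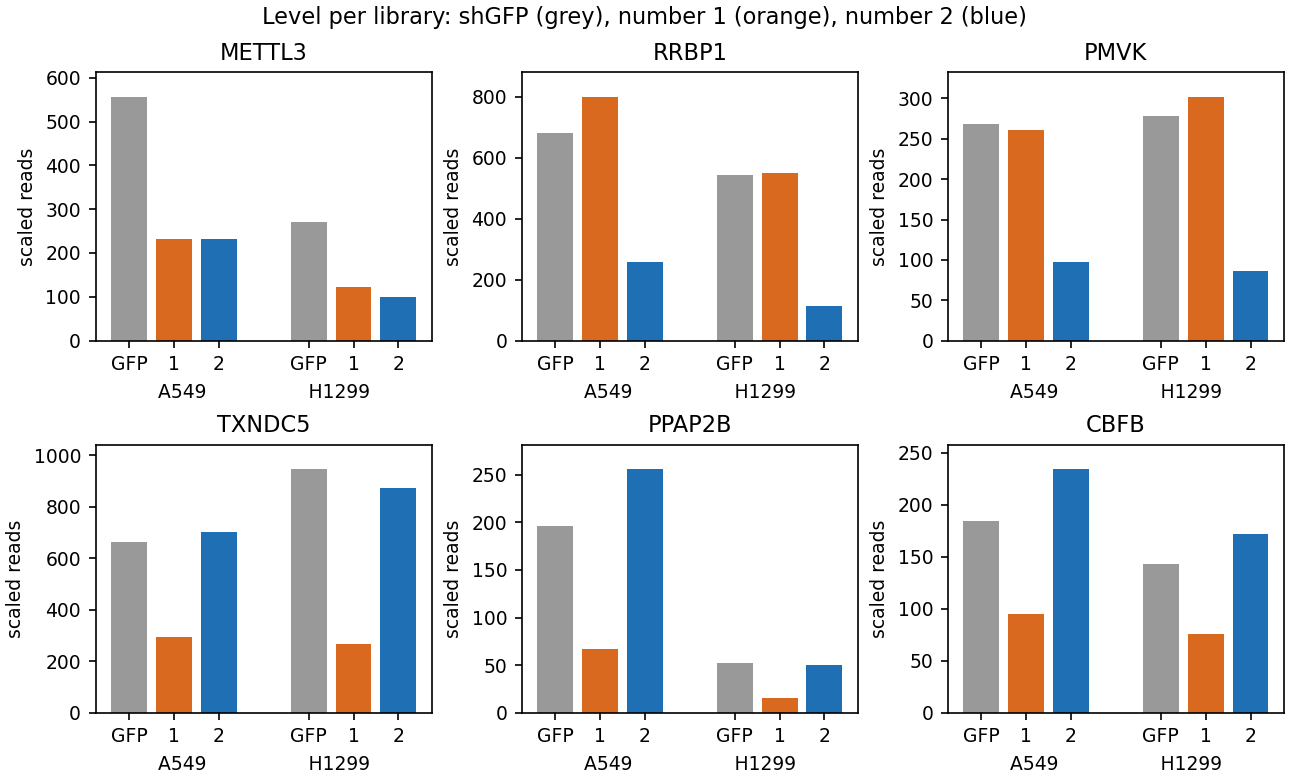
Scaled reads (y axis) of 6 genes in the shGFP library (grey), number 1 (orange) and number 2 (blue) of each line, 1 bar per library and no error bars. METTL3 is low in both numbers, RRBP1 and PMVK are low in number 2 alone, and TXNDC5, PPAP2B and CBFB are low in number 1 alone.

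Among the 21 genes, the number farther from the control was mostly the lower one. Of the 12 genes higher in number 1, number 2 was the farther from shGFP in both lines for 11, and number 1 lay within 0.5 log2 units of shGFP in both lines for 9. Of the 9 genes lower in number 1, number 1 was the farther for 8 and below shGFP in both lines for 9, while number 2 lay within 0.5 units for 7. The wider set was more mixed: of the 208 genes limma called higher on the deposited scale, number 2 was the farther in both lines for 92, number 1 for 65, and the lines differed for 51. Of the 73 called lower, these counts were 10, 46 and 17. Over all 10124 genes number 1 was the farther in both lines for 3395, number 2 for 2146, and the lines differed for 4583. Each line has 1 shGFP library, which both numbers share in this reading, and it was not part of the test.

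A rule of size, with no test, found 32 genes with a gap of 2-fold or more in the same direction in both lines, 23 higher in number 1 (0.227%) and 9 lower (0.0889%), against 2 in opposite directions. At 1.5-fold, 227 genes were on the same side in both lines and 22 on opposite sides, and at 3-fold 4 and 0. Within a single line, 244 genes were at least 2-fold apart in A549 and 133 in H1299. All 32 were among the calls of limma on the deposited scale. Across the 10124 genes, the A549 and H1299 differences had a Pearson r of 0.366 and a Spearman rho of 0.363. This describes genes within 4 libraries, which are not independent replicates, and the pair of differences shares no library.

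Some genes far apart in both lines did not pass in all 4 analyses. FN1, the matrix protein fibronectin, stood at 882 in A549 shGFP cells, 5894 in number 1 and 532 in number 2, and at 17.1, 40.0 and 16.0 in H1299. The gap was 3.47 log2 units in A549 and 1.27 in H1299, and the adjusted p was 0.00153 on the deposited scale and 0.0822 after centring. C5, a complement component, stood at 551, 1227 and 230.3 in A549 and at 64.7, 99.1 and 38.6 in H1299, with an adjusted p of 0.0634 in edgeR. In the same A549 number 1 library the summed level of 6 measured gut epithelial markers was 989, against 30.0 in number 2 and 92.4 in shGFP cells. Most of the 989 came from CEACAM5 (519.6) and CDH17 (371.1), while LGALS4 was 8.21 and GPA33 0.36. In H1299 the sum was 5.1 and 4.8, with 5 of the 6 under 1 in all 3 libraries. The part of these transcripts in the A549 values of FN1 and C5 was not tested.

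Lower in number 1 with the same limit were NPTX1, MROH6, MSX1 and TFPI. NPTX1, a secreted neuronal pentraxin, stood at 213, 82.1 and 436 in A549 and at 23.7, 16.4 and 37.0 in H1299. MSX1, a homeobox transcription factor, stood at 28.7, 20.4 and 46.9 and at 12.2, 14.4 and 36.0, with an adjusted p of 0.0135, and 0.0643 after centring. Its difference over both lines was -1.21 on the deposited scale and -1.30 after centring, a shift that centring gives every gene. TFPI, an inhibitor of the tissue factor pathway of coagulation, had differences of -0.91 and -0.94. MROH6 had -1.17 and -1.34, with an adjusted p of 0.0528 in edgeR. TMEFF2, a transmembrane protein with follistatin-like domains, was below the limit on the mean and was not tested. It stood at 3.16, 20.7 and 1.88 in A549 and at 3.3, 17.6 and 2.6 in H1299, high in number 1 alone in both lines.

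**Figure D3:**
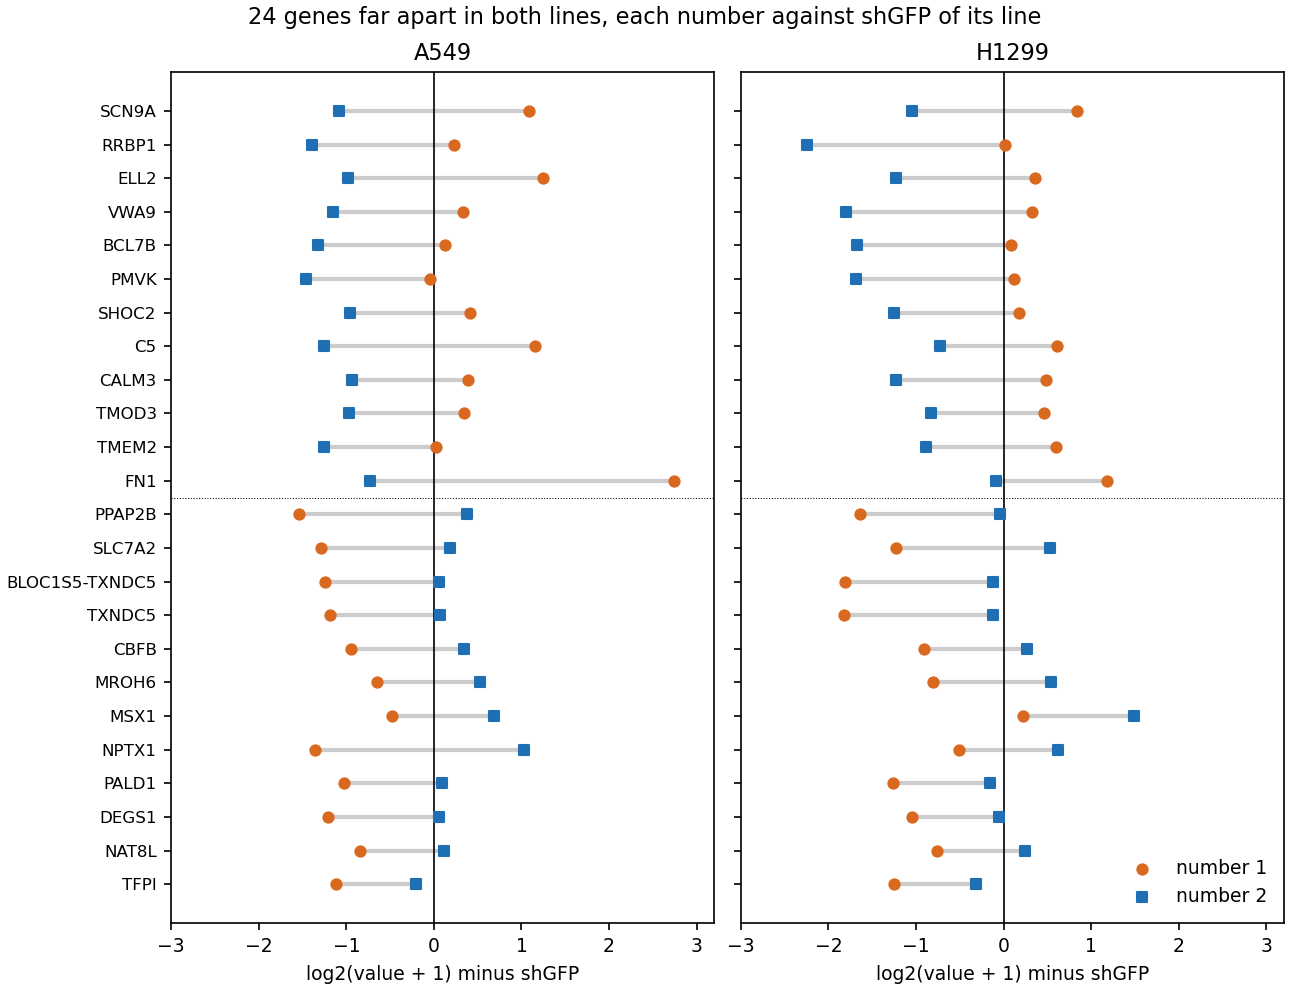
Level of each number minus shGFP, log2(value + 1), in A549 (left) and H1299 (right), for the 12 genes higher and the 12 lower in number 1 with the largest difference in the line where it is smaller. Number 1 is the orange circle and number 2 the blue square. RRBP1 and PMVK have number 1 at the control line and number 2 at -1.39 to -2.24, and TXNDC5 has the reverse.

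Gene lists were described by counts and medians, with no test of a list, beside all 10124 genes. Of all these genes, 39.2% were higher in number 1 in both lines and 21.8% lower. By limma on the deposited scale, 2.05% were called higher and 0.721% lower. At these shares a short list can hold 0 calls. Cholesterol and isoprenoid synthesis was the list in which most members leaned to number 1: 19 of 25 were higher in both lines and 2 lower, with medians of 0.20 in A549 and 0.51 in H1299. On the deposited scale limma called 3 of them higher and 0 lower. Beside PMVK these were HMGCS1, which makes the precursor of mevalonate (0.69 and 0.72), and LSS, which closes the sterol ring (0.72 and 0.61). Neither passed after centring, with adjusted p of 0.0874 and 0.127.

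For fatty acid synthesis and desaturation the count was 9 of 20 higher and 2 lower, with medians of 0.07 and 0.26. LPIN1, which makes diacylglycerol, was the 1 member called (0.83 and 0.49, adjusted p = 0.0480, and 0.153 after centring). Of 39 genes of ER protein folding and secretion, 15 were higher and 5 lower. Their 3 calls pointed both ways: RRBP1 and STT3A, a catalytic subunit of N-glycosylation, were higher in number 1, and TXNDC5 was lower. STT3A (0.69 and 1.02) did not pass after centring, with an adjusted p of 0.0744.

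Genes of the translation machinery held no call. The 79 cytosolic ribosomal protein genes had medians of -0.44 and 0.15, with 0 higher in both lines, 13 lower and 0 called. RPS28, of the small subunit, had the largest difference when genes were ranked by the line where it is smaller, at 1478, 1282 and 1754 in A549 and 2775, 2284 and 2777 in H1299 (-0.45 and -0.28, adjusted p = 0.251). Of 40 translation initiation and elongation factors, 2 were higher and 16 lower in both lines, with medians of -0.17 and 0.04 and 0 called. EIF3J, a loosely bound subunit of initiation factor eIF3, had -0.44 and -0.43 (adjusted p = 0.198).

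Cell cycle lists held 1 call. Of 37 genes of G2/M and mitosis, 26 were higher in number 1 in both lines and 1 lower, with medians of 0.06 and 0.19 that lie close to those of all genes. The 37 genes of S phase and replication had medians of -0.10 and 0.18. CCNE1, the cyclin that drives entry into S phase, was called: it stood at 258, 308 and 189 in A549 and at 84.1, 88.0 and 27.0 in H1299, low in number 2 in both lines. Its adjusted p was 0.0143 on the deposited scale and 0.0822 after centring. Histone genes had medians of -0.13 and -0.19, with 2 of 16 higher in both lines and 7 lower. Beside HIST1H2BK, the linker histone gene H1FX was called in the other direction (0.47 and 0.67, adjusted p = 0.0448, and 0.136 after centring).

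The stress and signalling lists held calls in both directions. Over all genes tested, limma on the deposited scale called 2.05% higher in number 1 and 0.721% lower. Of 24 ATF4 targets, 4 were higher in both lines and 9 lower, with medians of -0.30 and 0.02, and the secreted glycoprotein gene STC2 was called lower (-2.10 and -0.64). Among 27 YAP/TAZ targets 7 were higher and 11 lower, and the kinase NUAK2 (-0.82 and -0.49) and FJX1 (-1.12 and -0.49) were called lower. DUSP5, a phosphatase that inactivates ERK, was lower in number 1 (-0.70 and -0.82), as was IER3 (-0.80 and -0.45), an early response gene, among 27 genes of ERBB and MAPK signalling. EGFR had -0.04 in A549 and 1.05 in H1299 (adjusted p = 0.351). Of 15 immediate early genes KLF2, a zinc finger transcription factor, was called higher (1.41 and 0.58). None of these calls passed after centring. There the differences over both lines were -1.46 for STC2, -0.74 for NUAK2, -0.89 for FJX1, -0.85 for DUSP5 and -0.71 for IER3. That these were no smaller in size than on the deposited scale follows from the downward shift that centring gives every gene.

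The m6A list, with 10 of 23 genes higher in both lines and 6 lower, had medians of 0.07 and 0.05 and 0 calls. FTO, an m6A demethylase, had the largest difference when ranked in the same way, at 371, 464 and 337 in A549 and 152, 207 and 154 in H1299 (adjusted p = 0.151). In the small RNA pathway, which carries an shRNA's product, 6 of 13 genes were higher and 5 lower. TNRC6C, a partner of Argonaute in silencing, was called higher (1.28 and 0.90, adjusted p = 0.0161, and 0.0822 after centring). The nuclear RNase DROSHA had -0.27 and -0.36 and the hairpin exporter XPO5 0.29 and 0.53, neither past the threshold. Of 16 genes of double-stranded RNA sensing and interferon response, 7 were higher, 1 lower and 0 called, with medians of 0.08 and 0.06.

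Epithelial junction and keratin genes had 7 of 12 members higher in number 1 in both lines and 0 lower, with medians of 0.40 and 0.16. KRT8, a keratin of simple epithelia, was called (0.54 and 0.74, adjusted p = 0.0303, and 0.110 after centring). The lung epithelial markers summed to 39778 in A549 number 1 and 34461 in number 2, and to 1683 and 1256 in H1299. Most of each sum came from the keratins KRT7, KRT8 and KRT18. In A549, KRT7 was lower in number 1 (15220 against 16843), while KRT8 (12213 against 8420) and KRT18 (11824 against 8957) were higher. EPCAM (75.4 against 14.1), FOXA1 (316 against 154) and FOXA2 (115 against 54.7) were also higher in A549 number 1. The H1299 values of numbers 1 and 2 were 0.4 and 0 for EPCAM, 31.6 and 33.8 for FOXA1, and 0 and 0 for FOXA2. Among the alveolar markers of this list, NKX2-1, SFTPC and SLC34A2 were under 3 in every library. The surfactant protein gene SFTPB was between 3.7 and 11.6, and NAPSA was between 0.8 and 7.19. The summed fibroblast (154 and 152 in A549, 62.1 and 58.4 in H1299), leukocyte (222.5 and 213, 280 and 254), endothelial (56.8 and 34.4, 21.2 and 20.4) and neuroendocrine (5821 and 5285, 5302 and 5526) markers lay closer together than the gut markers of A549. Close sums can hold members that differ. In H1299, VGF was 990 in number 1 and 1803 in number 2, and UCHL1 was 3787 and 3236.

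The other lists had 1 call between them, FN1 in the list of TGF-beta signalling and matrix (medians 0.02 and 0.12). Medians were 0.22 and -0.05 for NRF2 targets, -0.45 and 0.05 for NF-kB and cytokines, -0.04 and 0.06 for oxidative phosphorylation and -0.03 and 0.20 for housekeeping genes. Across the 24 lists, the medians of 11 were on the same side of the all-gene median in both lines.

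**Figure D4:**
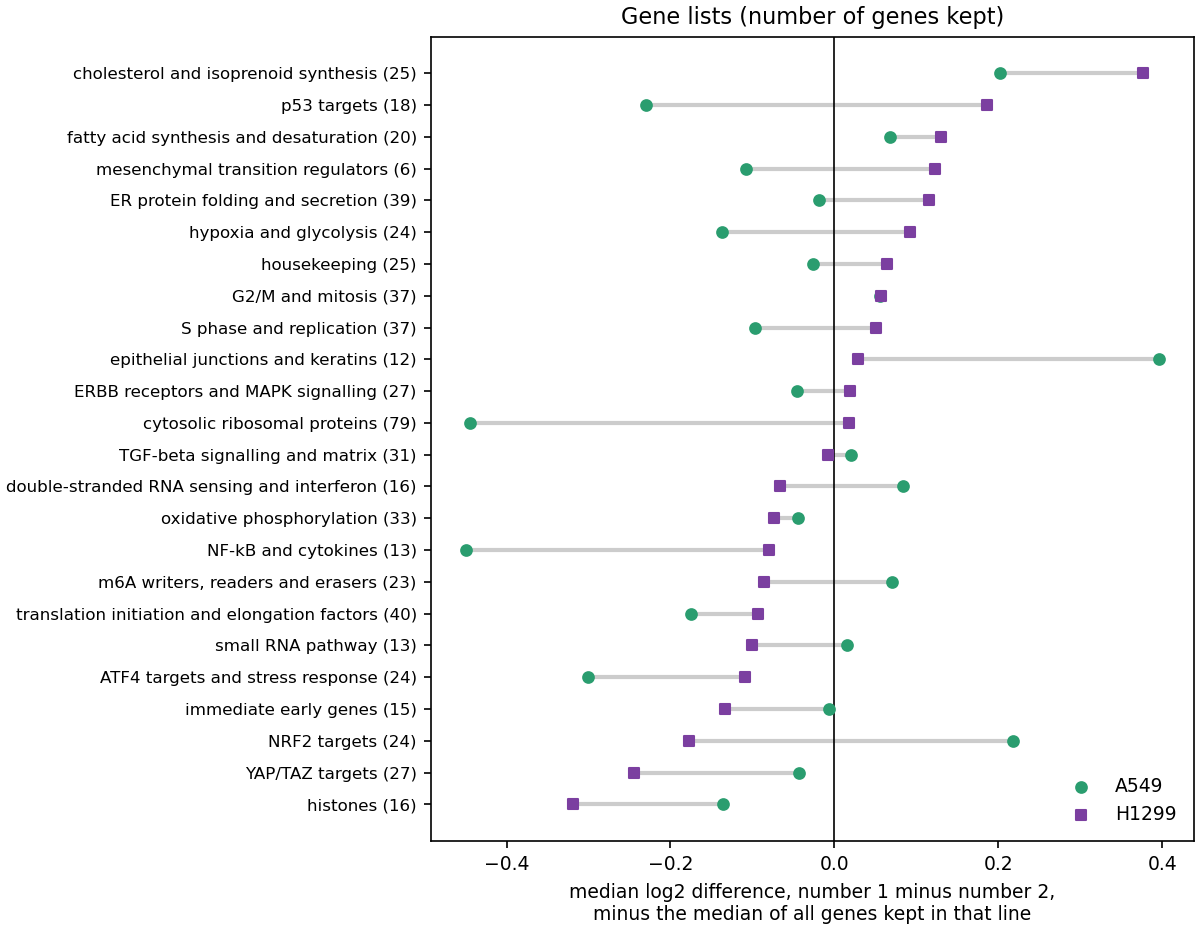
Median log2 difference, number 1 minus number 2, of each of 24 gene lists minus the median of all genes in that line (A549 green circles, H1299 purple squares), with the number of genes kept in brackets. Cholesterol and isoprenoid synthesis lies to the right in both lines (0.20 and 0.38), histones to the left (-0.14 and -0.32), and ribosomal proteins to the left in A549 alone (-0.44).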

How the data were processed

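RNA-seq of A549 and H1299 cells was deposited by the authors as 2 tables of signal per gene, 1 per line. Per the submitters' processing notes, the tools were Bowtie and TopHat and the build hg19, with no versions. The read counter, annotation and strand setting are not given in the sources used here. Tested on the values, the deposited signal is a whole number of reads divided by 1 factor per library (2.8 to 5.1), in 100% of values within rounding, and multiplying back gave reads. Columns named shMEL in the A549 table were matched to its knockdown samples by their number. The m6A peak lists were not used.

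Differences were log2(value + 1), number 1 minus number 2. limma 3.58.1 (R 4.3.3; lmFit, eBayes with intensity trend) fitted the 4 knockdown libraries with line as a block, since numbers 1 and 2 of a pair share their cell line. The fit leaves 1 residual degree of freedom and borrows 13.8 from other genes. That 1 degree is the difference between the lines in the number 1 minus number 2 contrast. Benjamini-Hochberg adjusted p under 0.05 over 10124 genes was the threshold. edgeR 4.0.16 (quasi-likelihood) ran on the recovered reads. The code was tested on simulated data.

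The genes compared, the gene lists and the tests were chosen with earlier results of these data known. Named genes were the 12 higher and 12 lower with the largest smaller-of-both-lines difference, METTL3, up to 3 members per list, FN1, SCN9A, TMEFF2, PMVK, RRBP1 and TXNDC5, and the 3 each way with the largest opposite differences. The 21 genes called in all 4 analyses, CALM2, BLOC1S5 and EGFR were named after their values were seen, as were list members that passed. Of 808 list genes, 784 were found in both tables by current or older symbol. Genes with names turned into dates (27 and 25) were left out.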

Additional observations from a re-analysis of the deposited data

Results flagged for a closer look

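Several genes and lists had opposite signs in the lines, and no test of the difference between lines was run for them. MYRF, a membrane-bound transcription factor, differed by 2.12 in A549 and -0.96 in H1299 (log2, number 1 minus number 2). Its levels in numbers 1 and 2 were 925 and 212 in A549 and 16.2 and 32.4 in H1299. ANKRD1, a YAP/TAZ target, had 1.55 and -0.90, and the semaphorin SEMA4G 1.51 and -0.80. In the other direction, the glucose transporter SLC2A3 had -1.27 in A549 and 1.24 in H1299, at 180.0 and 436 and at 361 and 153. SNAP25, a protein of vesicle fusion, had -1.28 and 1.04, and the anthrax toxin receptor ANTXR1 -1.25 and 0.83. These genes were picked for their opposite signs, so the signs are a description.

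Of the gene lists, the median of cytosolic ribosomal proteins was -0.44 in A549 and 0.15 in H1299, that of p53 targets -0.23 and 0.32, that of hypoxia and glycolysis -0.14 and 0.22, and that of mesenchymal transition regulators -0.11 and 0.25. The median of all genes was 0.00 and 0.13, so that part of each gap is shared by all genes.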

How the results depend on the processing

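The 281 limma calls became 33 with median centring, 26 with TMM scaling, 21 in edgeR, 64 with no intensity trend and 93 with a mean of at least 50. They became 386 with a mean of at least 5 and 403 with all 6 libraries in the fit. Calls lower in number 1 also fell with centring, from 73 to 13. Centring lowers the difference of every gene by the same amount, so differences below 0 grow in size by construction. The cause of the lost calls was not tested. With no replicate block, which leaves the line difference in the error, limma called 0 genes, with 27 at an unadjusted p under 0.05. Leaving out each knockdown library in turn, in a fit of the other 5 libraries with shGFP, gave 500 to 1224 calls, against those 403, where the lone library is assumed to vary like the rest. That was 913 without A549 number 1, 500 without A549 number 2, 1224 without H1299 number 1 and 564 without H1299 number 2. The 21 genes were chosen for passing limma on the deposited scale, centring, TMM and edgeR, so their passing those was fixed. The other alternatives that kept every knockdown library reuse the same values, and are no separate support. Under these the 21 genes stayed called, with 3 exceptions. There were 20 called with no intensity trend, 17 kept and called with a mean of at least 50, and 0 with no replicate block. The 32 genes at least 2-fold apart became 88 with a mean of at least 1, 58 with at least 5, 17 with at least 50, 95 with no filter, 227 at 1.5-fold and 4 at 3-fold. The correlation across genes of 0.366 became 0.236, 0.312 and 0.176 with a mean of at least 1, at least 5 and no filter. METTL3 did not pass under any alternative run (adjusted p of 0.243 or more). Of the values of single named genes under the alternatives, 1154 kept their side of the threshold, 127 lost it, 50 gained it and 0 reversed. With 1 library per line and number, library and number cannot be told apart within a line.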
